A study of Rattus norvegicus with 12 samples.

Results

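Hmgcs1, Sqle, Insig1, Srebf1, Srebf2, Fdft1, Fdps, and Idi1 are genes of cholesterol synthesis and of the transcription factor system that controls it. They were followed here in adult rat ventricular myocytes (ARVMs) that overexpressed the nuclear receptor NR4A2. The genes were chosen by name, with earlier results of these data known, and every transcript listed under these names was taken. This gave 8 of the 17301 gene names and 9 of the 18752 transcripts in the RNA sequencing data. All 8 genes were above 0 in each of the 12 libraries, and all 8 were tested. Compared with cells transduced with Ad-GFP, 7 of the 8 genes fell in cells transduced with Ad-h-NR4A2 and 1, Fdft1, rose, with log2 fold changes between -0.85 and 0.17, whereas 21.7% of all 10950 genes tested fell and 19.3% rose.

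ARVMs were isolated from male Sprague Dawley rats and transduced at 50 MOI with an adenovirus, and total RNA was extracted 48 h later without a change of medium. The Ad-h-NR4A2 virus carries the human NR4A2 cDNA under the cytomegalovirus promoter, and the control virus, Ad-GFP, carries enhanced green fluorescent protein. Each group holds 6 libraries from 6 independent experiments with cells of different rats, numbered 24 to 29 in both groups. Cells of both groups had thus received a virus, no untransduced cells are among the libraries, and the age of the animals is not given in the sources used here. All cells were cultured with insulin-transferrin-selenium and a chemically defined lipid concentrate, and the sterol content of this medium is not given in the sources used here. The receptor was made from a human cDNA, so that the rat Nr4a2 row counts those viral transcripts that aligned to the rat gene.

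Cholesterol is built from acetyl-CoA through mevalonate, the isoprenoid diphosphates, squalene, and lanosterol. The genes of the pathway are controlled together by the sterol regulatory element-binding proteins (SREBPs), which are made as precursors in the membrane of the endoplasmic reticulum. When membrane sterol is low, the escort protein SCAP carries them to the Golgi, where proteases release the part that enters the nucleus. When sterol is high, the INSIG proteins hold SCAP and its cargo back. SREBP-2, the product of Srebf2, acts mainly on cholesterol genes, whereas SREBP-1, the product of Srebf1, acts mainly on fatty acid genes. Insig1 is itself an SREBP target, which closes a feedback loop.

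SREBPs bind sterol regulatory elements in the promoters of their targets together with the CCAAT-binding factor NF-Y and with Sp1, so the promoters are shown for the members with the largest falls that have a RefSeq entry and for Srebf2. The windows come from the RefSeq promoter table of the rat build GRCr8, which gave 7 windows for 6 of the 8 members: Hmgcs1, Fdps, Insig1, Srebf2, Idi1, and Srebf1, the last with 2 start sites. The 250 bases before the start site are printed 5′ to 3′ on the strand of the gene, and capitals mark CCAAT or its complement ATTGG. The Hmgcs1 window is chr2:53382054-53382303 on the plus strand, that of Insig1 chr4:8057770-8058019 on the minus strand, that of Idi1 chr17:66547525-66547774 on the minus strand, and that of Srebf2 chr7:115543057-115543306 on the plus strand.
Hmgcs1: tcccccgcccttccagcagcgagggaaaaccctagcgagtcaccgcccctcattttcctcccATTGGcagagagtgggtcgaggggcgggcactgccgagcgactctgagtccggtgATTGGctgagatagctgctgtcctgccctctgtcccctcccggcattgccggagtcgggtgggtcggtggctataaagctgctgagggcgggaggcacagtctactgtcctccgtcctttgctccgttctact
Insig1: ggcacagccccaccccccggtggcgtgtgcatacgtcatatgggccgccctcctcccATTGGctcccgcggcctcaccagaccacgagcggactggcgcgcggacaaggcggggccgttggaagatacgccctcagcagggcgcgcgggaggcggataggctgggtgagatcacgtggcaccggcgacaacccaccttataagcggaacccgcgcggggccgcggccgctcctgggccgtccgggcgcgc
Idi1: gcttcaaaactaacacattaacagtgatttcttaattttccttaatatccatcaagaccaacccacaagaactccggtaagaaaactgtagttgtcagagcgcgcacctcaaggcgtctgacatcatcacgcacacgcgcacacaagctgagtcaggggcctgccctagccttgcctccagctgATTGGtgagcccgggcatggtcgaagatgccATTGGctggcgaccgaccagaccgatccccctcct
Srebf2: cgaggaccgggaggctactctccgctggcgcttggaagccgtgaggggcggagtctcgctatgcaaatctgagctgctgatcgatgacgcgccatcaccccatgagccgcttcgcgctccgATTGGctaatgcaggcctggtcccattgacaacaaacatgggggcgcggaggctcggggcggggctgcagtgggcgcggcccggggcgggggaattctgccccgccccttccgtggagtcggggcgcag

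Both strands of each window were searched, here including the 50 bases after the start site. CCAAT was found in 7 of 7 member windows and in 37.5% of all 33469 rat promoter windows. Counted from the start site, its first base lay at -188 and -133 in Hmgcs1, at -193 in Insig1, at -66 and -35 in Idi1, at -130 and -85 in Fdps, and at -129 in Srebf2. The Sp1 box GGGCGG was found in 6 of 7 member windows, Idi1 being the member without it, and in 33.1% of all windows. The E-box CACGTG was found in the Insig1 window and in 6.42% of all windows. The sterol regulatory element in the form TCACNCCAC was found in 0 of 7 member windows and in 1.12% of all. Another form of this element, ATCACCCCA, which shares letters with the first, lies in the Srebf2 window from base 94 to base 102, upstream of the CCAAT box, and in 0.245% of all windows. This form was chosen after the sequence had been seen. The NBRE, AAAGGTCA, to which NR4A receptors bind as monomers, was found in 0 of 7 member windows and in 1.43% of all. These matches describe the letters of the windows and are not evidence of binding.

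Nr4a2 itself was listed at 0.884 ± 0.309 (SD, n = 6) FPKM (fragments scaled to transcript length and to the mapped fragments of a library) in Ad-GFP and at 524 ± 70.3 FPKM in Ad-h-NR4A2, and the groups did not overlap. The depth recovered from the low values was 18700000 to 27800000 fragments per library in Ad-GFP and 21600000 to 27100000 in Ad-h-NR4A2, with Ad-GFP sample 25 the shallowest. Log2(FPKM + 0.1) was compared with limma across 10950 genes, and a gene is said to have risen or fallen when its adjusted p (Benjamini-Hochberg) was below 0.05. By this rule 40.9% of all genes tested changed, and the median log2 fold change of all genes was -0.02. A gene is called differentially expressed when the ratio of the group means was also at least 1.5 in either direction, which was true of 15.2% of all genes, 7.24% lower and 7.94% higher. In 21.5% of all genes the groups did not overlap, in 10.6% with Ad-h-NR4A2 lower. The RNA is from all cells of a dish, so fewer cells of a type and less RNA per cell cannot be told apart. Of 5 cardiomyocyte markers 3 fell, and their summed level was 17594 to 22757 FPKM in Ad-GFP and 15612 to 19211 in Ad-h-NR4A2, whereas the 6 fibroblast markers summed to at most 30.1 FPKM in any library, with 1 lower and Col1a2 listed at 0. Endothelial markers (0 of 4 past the test), smooth muscle markers (1 of 3, lower), and adipocyte markers (0 of 4, 2 of them tested) summed to at most 16.1, 20.2, and 3.60 FPKM. The 4 macrophage markers summed to 5.95 to 17.2 FPKM in Ad-GFP and 37.0 to 44.2 FPKM in Ad-h-NR4A2, of which Csf1r rose (10.1 against 40.2 FPKM), while Cd68 stood at 0.463 and 0.482 and Ptprc at 0.0258 and 0.0218. The part of these shifts in the results below was not tested.

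The median log2 fold change of the 8 members was -0.57. Of these, 4 were differentially expressed, all lower (7.24% of all genes tested were lower by this call): Sqle, Hmgcs1, Idi1, and Insig1. For 5 members, these 4 and Srebf2, no Ad-h-NR4A2 library reached the lowest Ad-GFP library, as in 10.6% of all genes tested. In each of the 7 that fell, the Ad-h-NR4A2 library was the lower one in 6 of 6 same-numbered pairs. The same was true of 19 of the 20 genes that fell in the other lists described below, so it is not particular to the members.

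**Figure D1:**
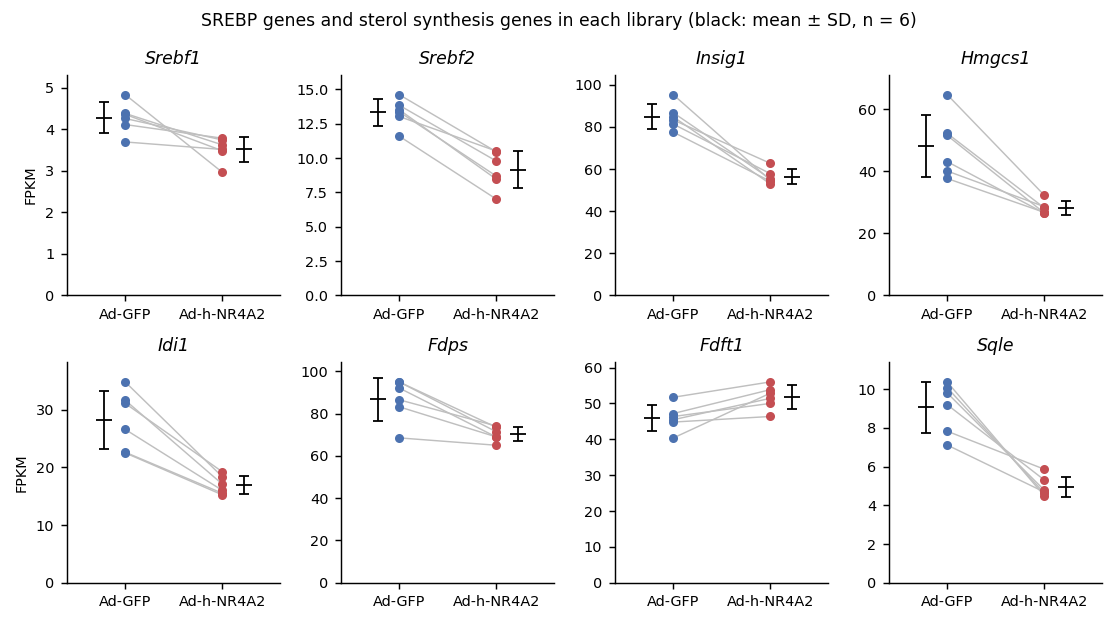
FPKM of the 8 members (vertical axis, from 0) in each Ad-GFP (blue) and Ad-h-NR4A2 (red) library; gray lines join libraries of the same number, and black marks give mean ± SD (n = 6). The Ad-h-NR4A2 points lie below all Ad-GFP points for Srebf2, Insig1, Hmgcs1, Idi1, and Sqle, overlap them for Srebf1 and Fdps, and lie higher in each pair for Fdft1.

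Both SREBP genes fell, with log2 fold changes of -0.55 for Srebf2 and -0.27 for Srebf1. Srebf2 lies on chromosome 7 from 123364495 to 123422296 of the rat build Rn5, in a locus that also holds Mir33, a microRNA gene listed at 0 in all libraries. It ranged from 11.6 to 14.6 FPKM (median 13.5) in Ad-GFP and from 7.02 to 10.5 FPKM (median 9.25) in Ad-h-NR4A2. All 6 Ad-h-NR4A2 libraries were thus below all 6 Ad-GFP libraries. The Srebf2 change had an SE of 0.10 (95% interval -0.75 to -0.34, adjusted p = 5.1e-04 from limma), and the two-sided exact permutation test over the 924 splits into 6 and 6 gave p = 0.00216, the smallest it can give. The ratio of means was 0.687, just outside the 1.5-fold limit of 0.667, so that Srebf2 was not called differentially expressed. The pair differences lay between -0.72 (number 25) and -0.31 (number 24).

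Srebf1 was the lowest of the 8 genes in both groups. It is listed on chromosome 10, from 46266253 to 46348028 (Rn5), in a locus shared with Rai1, which fell too (3.17 against 2.26 FPKM, log2 fold change -0.49, adjusted p = 0.00495 from limma). The main Srebf1 transcript ranged from 3.69 to 4.83 FPKM (median 4.31) in Ad-GFP and from 2.96 to 3.78 FPKM (median 3.57) in Ad-h-NR4A2. The groups overlapped, since the lowest Ad-GFP library, number 25, was below the highest Ad-h-NR4A2 library. Srebf1 fell by 0.27 on the log2 scale (SE 0.08, adjusted p = 0.0186 from limma; exact permutation p = 0.00649), a ratio of means of 0.824, and was not differentially expressed. This call was lost without the libraries numbered 26 (-0.26, adjusted p = 0.0662 from limma) and without those numbered 28 (-0.19, adjusted p = 0.0745). The second Srebf1 transcript was uneven, with a median of 0.464 FPKM and a highest value of 1.73 in Ad-GFP, and a median of 0.197 and a highest value of 0.618 in Ad-h-NR4A2. Fitted by itself it was at -1.20 on the log2 scale with an SE of 0.73 and did not pass the test (adjusted p = 0.253 from limma). With both transcripts summed, the Srebf1 log2 fold change was -0.40.

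The balance of the 2 SREBP genes was compared within each library, which removes any scaling common to a library. The log2 ratio of Srebf1 to Srebf2 was -1.62 ± 0.08 (SD, n = 6) in Ad-GFP and -1.35 ± 0.28 in Ad-h-NR4A2, a difference of 0.27 that did not pass the exact permutation test (p = 0.0584) at a pseudocount of 0.1 and did at 1 (difference 0.28, p = 0.0173). The ratio was higher in 5 of 6 pairs and was more spread in Ad-h-NR4A2, from -1.69 to -0.98.

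Insig1, which encodes the SREBP-inducible retention protein, was more abundant than Srebf1 and Srebf2 in both groups. Its row covers chromosome 4 from 337389 to 345602 (Rn5). Insig1 ranged from 77.6 to 95.3 FPKM (median 84.1) in Ad-GFP and from 53.0 to 62.8 FPKM (median 55.1) in Ad-h-NR4A2, and the groups did not overlap. It fell by 0.59 on the log2 scale (SE 0.05, 95% interval -0.71 to -0.47, adjusted p = 1.77e-06 from limma; exact permutation p = 0.00216). The ratio of means was 0.664, just inside the limit for differential expression. Without Ad-GFP sample 26 the Insig1 log2 fold change was -0.56, and the fold limit was not checked in that fit. The pair differences ran from -0.80 (number 26) to -0.41 (number 28).

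Insig2, the paralog that SREBPs do not induce, moved less: its mean was 46.7 FPKM in Ad-GFP and 42.7 in Ad-h-NR4A2, that is -0.13 on the log2 scale (limma adjusted p = 0.0465). Its groups overlapped, and this call was lost in 12 of 18 fits that left out a library or a pair. The log2 ratio of Insig1 to Insig2 was 0.86 ± 0.13 (SD, n = 6) in Ad-GFP and 0.40 ± 0.07 in Ad-h-NR4A2. It was lower in 6 of 6 pairs, and the difference of -0.46 had an exact permutation p of 0.00216, so the paralogs changed unequally. Scap, which encodes the escort protein, did not pass the test at 20.8 and 21.0 FPKM, and the 95% interval of its log2 fold change was -0.15 to 0.17.

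The enzymes are described in the order of the pathway. Hmgcs1 encodes the cytosolic HMG-CoA synthase, an early enzyme of the mevalonate route, and lies on chromosome 2 from 70791263 to 70809191 (Rn5). It ranged from 37.7 to 64.8 FPKM (median 47.4) in Ad-GFP and from 26.6 to 32.4 FPKM (median 27.5) in Ad-h-NR4A2. The groups did not overlap, and the Ad-GFP libraries were the more spread, with SDs of 10.0 against 2.22 FPKM around means of 48.3 and 28.2. Hmgcs1 fell by 0.75 on the log2 scale (SE 0.11, 95% interval -0.996 to -0.507, adjusted p = 1.42e-04 from limma; exact permutation p = 0.00216), to a ratio of 0.584. The fall was deepest in pair 27 (-0.999) and shallowest in pair 24 (-0.48).

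Idi1 encodes the isomerase that interconverts isopentenyl and dimethylallyl diphosphate. Its row on chromosome 17, from 59781714 to 59855683 (Rn5), is in a locus shared with Wdr37, which stood at 12.1 FPKM in both groups (log2 fold change 0.00, adjusted p = 0.989 from limma). Idi1 ranged from 22.5 to 34.8 FPKM (median 28.8) in Ad-GFP and from 15.2 to 19.3 FPKM (median 16.6) in Ad-h-NR4A2, and the groups did not overlap. It fell by 0.72 on the log2 scale (SE 0.11, 95% interval -0.96 to -0.48, adjusted p = 1.61e-04 from limma; exact permutation p = 0.00216), a ratio of 0.600. The pairs differed by -0.92 (number 27) to -0.54 (number 25).

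Fdps, the farnesyl diphosphate synthase, was the highest of the 8 genes by mean FPKM in both groups. It lies on chromosome 2 from 207816332 to 207826348 (Rn5). It ranged from 68.5 to 95.0 FPKM (median 89.3) in Ad-GFP and from 65.0 to 74.2 FPKM (median 70.2) in Ad-h-NR4A2. The overlap was due to Ad-GFP sample 25, which at 68.5 FPKM lay among the Ad-h-NR4A2 libraries. Fdps fell by 0.29 on the log2 scale (SE 0.07, 95% interval -0.45 to -0.14, adjusted p = 0.00555 from limma; exact permutation p = 0.0130), a ratio of 0.811, and was not differentially expressed. Without Ad-GFP sample 25 it fell by 0.36 on the log2 scale (adjusted p = 1.12e-04 from limma). Fdps has processed pseudogenes, so its level is uncertain to the extent that reads were shared with them.

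Fdft1, the squalene synthase, commits farnesyl diphosphate to sterols and was the one member that rose. It lies on chromosome 15 from 50104042 to 50132096 (Rn5). It ranged from 40.3 to 51.7 FPKM (median 45.9) in Ad-GFP and from 46.3 to 56.0 FPKM (median 52.1) in Ad-h-NR4A2. The groups overlapped, but the Ad-h-NR4A2 library was the higher one in 6 of 6 pairs, by 0.05 (number 29) to 0.39 (number 25). The log2 fold change was 0.17 (SE 0.06, 95% interval 0.04 to 0.30, adjusted p = 0.0341 from limma; exact permutation p = 0.0216), a ratio of 1.13. The call was lost on the TPM scale (0.16, adjusted p = 0.0831 from limma), without the variance trend (adjusted p = 0.0511), and without Ad-GFP sample 25 (0.13, adjusted p = 0.0730), and in all in 11 of 18 fits that left out a library or a pair.

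Sqle, the squalene epoxidase, catalyzes the first step that uses oxygen and is a rate-limiting enzyme of the later pathway. It lies on chromosome 7 from 100197094 to 100211968 (Rn5). It ranged from 7.11 to 10.4 FPKM (median 9.50) in Ad-GFP and from 4.49 to 5.86 FPKM (median 4.73) in Ad-h-NR4A2, which left the groups apart. These levels rest on 252 to 549 fragments per Ad-GFP library and 197 to 259 per Ad-h-NR4A2 library. Sqle fell most of the 8 members, by 0.85 on the log2 scale (SE 0.10, 95% interval -1.07 to -0.63, adjusted p = 2.24e-05 from limma; exact permutation p = 0.00216), to a ratio of 0.547. Its pairs were also the most unequal, from -1.19 (number 29) to -0.41 (number 24). Thus the 95% intervals of Fdft1 and of Sqle, which act one after the other, lay on opposite sides of 0.

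FPKM are per length, so the members can also be ordered by level. In Ad-GFP the order by mean FPKM was Fdps (86.7), Insig1 (84.9), Hmgcs1 (48.3), Fdft1 (46.0), Idi1 (28.2), Srebf2 (13.3), Sqle (9.06), and Srebf1 (4.27). Fdps and Insig1 overlapped, as did Hmgcs1 and Fdft1, and in both cases the first was above the second in 3 of 6 libraries. All other neighbors were apart in 6 of 6 libraries. In Ad-h-NR4A2 Fdft1 (51.7 FPKM) stood above Hmgcs1 (28.2 FPKM) in 6 of 6 libraries and next to Insig1 (56.3 FPKM), which it overlapped, and Fdps (70.4 FPKM) stood above Insig1 in 6 of 6. The rest of the order was as in Ad-GFP.

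**Figure D2:**
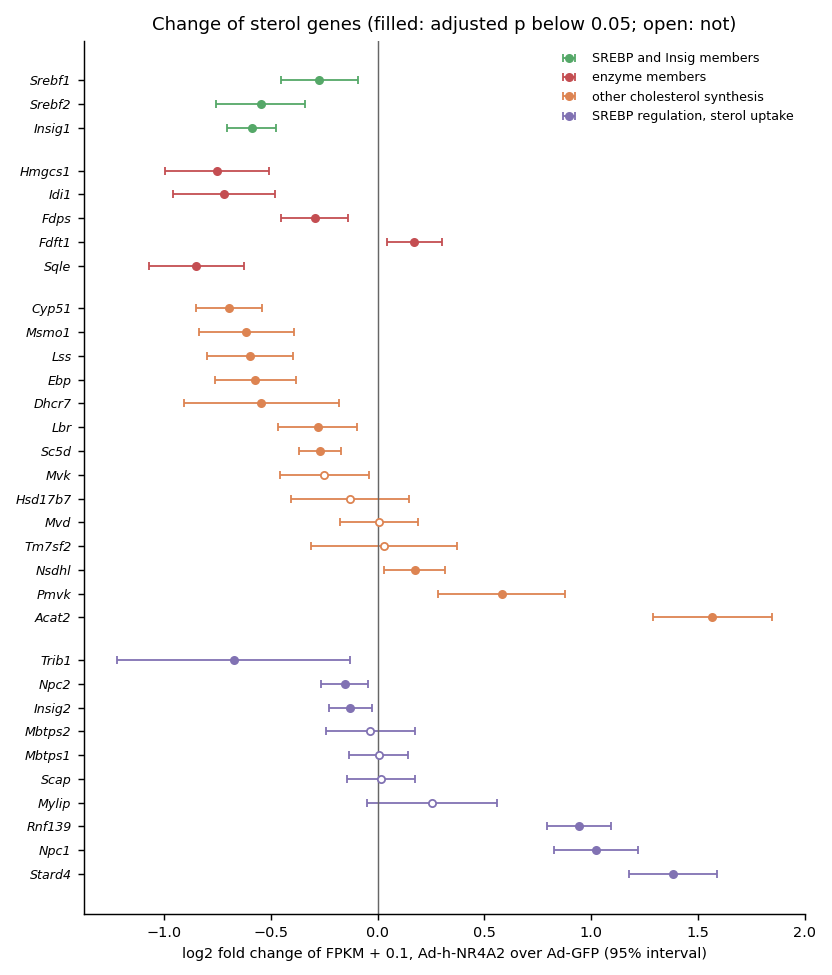
Log2 fold change of FPKM + 0.1, Ad-h-NR4A2 over Ad-GFP, with its 95% interval from limma, for the 8 members (green and red) and for other genes of cholesterol synthesis (orange) and of SREBP regulation and sterol uptake (purple); filled points passed the test. Among the members 7 points lie left of 0 and Fdft1 right of it, Cyp51 to Sc5d also lie left, and Acat2, Stard4, Npc1, and Rnf139 lie farthest right.

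The remaining genes of cholesterol synthesis changed in both directions. Of 17 such genes 16 could be tested, Idi2 being listed at 0 in all libraries. Of the 16, 9 fell, 3 rose, and 4 did not pass (21.7% and 19.3% of all genes fell and rose), with a median log2 fold change of -0.27. Differential expression was called for 5 lower and 2 higher (7.24% and 7.94% of all genes tested). Cyp51, the lanosterol demethylase, ranged from 62.5 to 84.9 FPKM in Ad-GFP and from 40.5 to 46.9 in Ad-h-NR4A2 and fell by 0.70 on the log2 scale (SE 0.07, adjusted p = 4.61e-06 from limma). Lss, which closes the sterol rings after Sqle, went from a mean of 3.96 to 2.58 FPKM (log2 fold change -0.60), and Msmo1, a sterol demethylation enzyme, from 37.4 to 24.2 FPKM (-0.61). In all 3 of these genes the groups did not overlap. Also lower were Ebp, Dhcr7, Lbr, and Sc5d, late sterol enzymes with changes from -0.57 (Ebp) to -0.27 (Sc5d), and the 4 that did not pass were Mvk, Mvd, Hsd17b7, and Tm7sf2.

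The 3 genes that rose were Acat2, Pmvk, and Nsdhl. Acat2, the cytosolic thiolase that supplies acetoacetyl-CoA to Hmgcs1, ranged from 7.60 to 9.86 FPKM in Ad-GFP and from 16.7 to 31.6 FPKM in Ad-h-NR4A2, 1.57 higher on the log2 scale (SE 0.13, limma adjusted p = 7.06e-07). Pmvk, the phosphomevalonate kinase, rose from a mean of 37.5 to 57.3 FPKM (0.58, adjusted p = 0.0041), and Nsdhl, a later sterol enzyme, from 15.5 to 17.5 FPKM (0.17, adjusted p = 0.0492). The Nsdhl call was lost with a pseudocount of 1, without the filter, on the TPM scale, and without the variance trend, and in 15 of 18 fits that left out a library or a pair. The Acat2 and Pmvk calls were lost in 0 of these 18 fits, where a call rests on the adjusted p and not on the fold limit. Without Ad-h-NR4A2 sample 27, the highest library for Pmvk at 89.0 FPKM, the Pmvk log2 fold change was 0.45. The 1.5-fold call of Pmvk thus leans on that library.

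Of 14 genes of SREBP regulation and sterol uptake, 11 were tested, of which 4 fell, 3 rose, and 4 did not pass (21.7% and 19.3% of all genes fell and rose), with a median of 0.00. The number that fell is not firm, since it was 2 without the variance trend and 1 to 3 when libraries were left out. Trib1 (8.03 against 4.76 FPKM, -0.67, adjusted p = 0.0477) and Npc2 (94.4 against 84.9 FPKM, -0.15, adjusted p = 0.0290) fell, as did Insig2. With a library or a pair left out, the Trib1 call was lost in 14 of 18 fits and the Npc2 call in 9 of 18, and the Trib1 call was also lost under 4 other settings. The 3 that rose were Stard4, a cytosolic sterol carrier (8.40 to 22.1 FPKM, log2 fold change 1.38), Npc1, which exports cholesterol from lysosomes (7.84 to 16.1 FPKM, 1.02), and Rnf139, a ubiquitin ligase of the endoplasmic reticulum (19.3 to 37.4 FPKM, 0.94). Their adjusted p values from limma were 1.45e-07, 1.41e-06, and 2.49e-07.

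Beyond their group means, some pairs of members varied together among libraries. Over the 12 libraries, deviations from the group means of log2(FPKM + 0.1) correlated most between Hmgcs1 and Idi1 (r = 0.880), and between Sqle and Fdps (0.743), Sqle and Insig1 (0.740), and Hmgcs1 and Fdps (0.735). The lowest value was between Insig1 and Srebf1 (r = -0.18), Fdft1 and Idi1 stood at -0.06, and the highest value of Srebf1 with any other member was 0.426. These values are descriptions over libraries that also share depth and scaling. Ad-GFP sample 25, the shallowest library, was the lowest of its group for 7 of 8 members, and the mean standardized deviation of the 6 members that are SREBP targets was -1.87 there, against -0.46 to 1.04 in the other Ad-GFP libraries and -0.43 to 0.52 in the Ad-h-NR4A2 libraries. Without it, the log2 fold changes were -0.82 for Hmgcs1, -0.78 for Idi1, -0.92 for Sqle, -0.62 for Insig1, -0.59 for Srebf2, and -0.31 for Srebf1, each larger in size than with it.

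**Figure D3:**
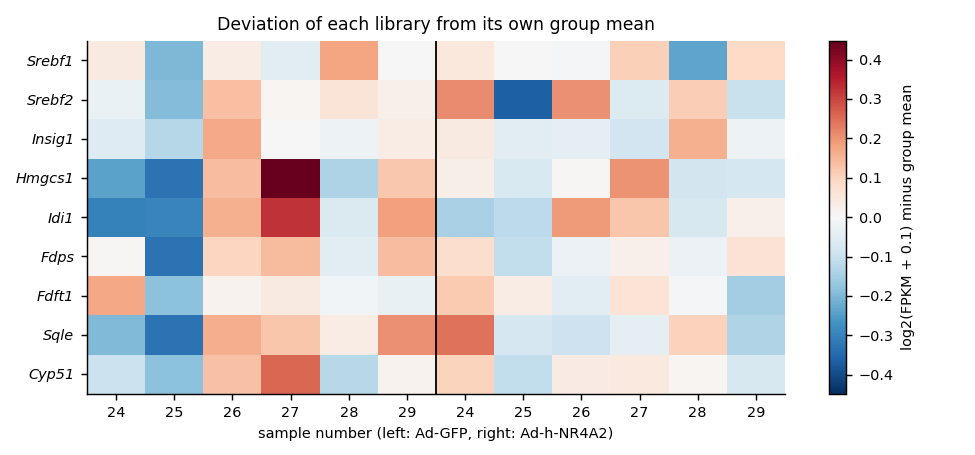
Deviation of each library from its own group mean in log2(FPKM + 0.1) (color) for the 8 members and Cyp51 (rows), in Ad-GFP (left) and Ad-h-NR4A2 (right) libraries numbered 24 to 29. Ad-GFP sample 25 is blue for all 8 members, and Hmgcs1 and Idi1 are darkest red in Ad-GFP sample 27.

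The mean standardized deviation of the 6 SREBP target members (Hmgcs1, Sqle, Insig1, Fdft1, Fdps, and Idi1) was compared with 8970 other genes. The 5 genes with the highest Pearson r over the 12 libraries were Zbtb8a (0.931), Cyp51 (0.878), Comtd1 (0.869), Nfib (0.855), and Nuak1 (0.855). Of these, Cyp51 is an enzyme of the same pathway. All 5 genes had their lowest deviation in Ad-GFP sample 25, where the mean of the 6 members was also lowest (-1.87). How far the r values rest on this library was not tested. Dhcr7, the last enzyme of one branch of the pathway, ranked 26 (r = 0.776) and Msmo1 29 (0.775). Other genes of cholesterol synthesis ranked lower, from Hsd17b7 at 93 (0.704) to Lss at 1148 (0.411) and Mvd at 1857 (0.319). Ebp ranked 3043 (0.205), Acat2 3631 (0.151), and Tm7sf2 5151 (0.012), so the pathway did not vary with the members as a whole. The measure uses deviations within groups, so it is separate from the difference between the viruses: Zbtb8a stood at 1.83 and 1.84 FPKM in the 2 groups.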

How the data were processed

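RNA of 12 ARVM samples, 6 per virus, was sequenced in paired-end stranded mRNA libraries. As their methods state, the authors used STAR for alignment to Rn5, a rat genome build, and Cufflinks for the abundance of RefSeq transcripts. The deposited values are FPKM, which the authors scaled to transcript length and to the mapped fragments of each library, so that a highly expressed transgene product can lower the share left for other genes. A failed status was listed for 8 values in all.

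The members and the gene lists were chosen with earlier results of these data known. Where a gene name had several transcripts (1016 names), the one with the highest mean FPKM stood for it. Genes above 0 in all 12 libraries were kept, and log2(FPKM + 0.1) was fitted with limma 3.58.1 (eBayes with trend) in R 4.3.3, two-sided, with Benjamini-Hochberg adjustment over all 10950 genes. A fold change on this scale understates the change of low genes. For single genes and for ratios of paralogs, an exact permutation test over the splits into 6 and 6 was added, two-sided as well. The p-values measure the spread between the 6 experiments. The fit was tested on simulated data before use.

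Named were the 8 members, the check gene Nr4a2, Insig2, and Scap, up to 4 of the largest rises and 4 of the largest falls of each list among genes past the test whose mean FPKM reached 1, and the 5 genes most like the members. Other genes (neighbors in a locus, cell markers, genes listed at 0, and further list genes) were named after their values were seen. Some genes of the lists are counted but not reported by name here. Depth was recovered from transcripts of at least 800 nucleotides, where 98.9% to 99.6% of the values of at most 6 fragments came out whole within 0.05. Fragment numbers cover counting error only.

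Same-numbered libraries deviated together (r = 0.347 to 0.623 over 10950 genes), whereas libraries of unlike number in the 2 groups were at r = -0.385 to 0.189. For 6 of 6 Ad-GFP libraries the highest r was with the Ad-h-NR4A2 library of the same number. The numbers were therefore taken as pairs, and the fit with a replicate block was an alternative, as the study's statistics are unpaired. Other alternatives were pseudocounts of 1 and 0.01, the TPM scale, no filter, a minimum mean FPKM of 1, no variance trend, quantile normalization, transcripts summed or fitted by themselves, no limit on the ratio, and each library or pair left out. Plots were drawn with Matplotlib 3.10.9, and the exact tests were run in SciPy 1.17.1 under Python 3.11.15.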

Additional observations from a re-analysis of the deposited data

Results flagged for a closer look

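The highest and lowest library of each group were compared with the rest by the gap to the nearest other library over the range of the group (Dixon's ratio, limit 0.625 for 6 libraries). In 68 groups over 34 genes, 4 passed the limit, and chance alone passes about 1 group in 20. All 4 were Ad-h-NR4A2 libraries. Hmgcs1 was 32.4 FPKM in sample 27, above a group median of 27.5 and still below every Ad-GFP library. Srebf1 was 2.96 FPKM in sample 28, below a group median of 3.57, and its call was lost without the libraries numbered 28. Pmvk was 89.0 FPKM in sample 27, above a group median of 51.3. Nceh1 was 26.5 FPKM in sample 24, above a group median of 19.3.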

How the results depend on the processing

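Among the fits that changed a setting, 78 values of the members kept their direction and their side of the adjusted p threshold. The 2 that did not were Fdft1 on the TPM scale (0.16, limma adjusted p = 0.0831) and without the variance trend (0.17, adjusted p = 0.0511). With 1 library left out, direction and side were kept for 89 of 96 values, and with 1 pair left out for 42 of 48. All exceptions were Fdft1 (range 0.13 to 0.21) and Srebf1 (range -0.31 to -0.19). The fold limit was not part of this comparison. Scap turned sign in 4 fits (range -0.024 to 0.049), never past the test. With the replicate block, the pairing changed no call of a member (Fdft1 adjusted p = 0.00658, Srebf1 0.0197), but more genes of other lists passed: 8 lower of fatty acid synthesis, 4 lower of efflux and storage, and 2 lower and 2 higher of isoprenoid use. The genes lower in SREBP regulation numbered 2 without the trend and 1 to 3 with libraries left out, those of efflux and storage 1 to 2, and those of isoprenoid use 1 to 2 in each direction. With a mean FPKM of at least 1, 3 genes of efflux and storage rose. Without a limit on the ratio, 2113 genes were higher and 2371 lower. The Srebf1 to Srebf2 ratio passed with a pseudocount of 1 (0.28, exact p = 0.0173). The cause of these shifts was not tested. Precision was lowest for the second Srebf1 transcript, with medians under 1 FPKM and an SE of 0.73.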

Other observations

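Genes next to the sterol pathway were counted from lists of SREBP-1 targets, sterol efflux and storage, and isoprenoid use. Of 16 genes of fatty acid synthesis 13 were tested, of which 5 fell and 1 rose (8 lower with the replicate block), with a median log2 fold change of -0.25. Without the block, 21.7% of all genes tested fell and 19.3% rose, and the shares with the block are not given here. Fasn, the fatty acid synthase, ranged from 4.91 to 7.73 FPKM in Ad-GFP and from 3.02 to 5.48 FPKM in Ad-h-NR4A2 and fell by 0.68 on the log2 scale (limma, Benjamini-Hochberg adjusted p = 0.00445). Both acetyl-CoA carboxylase genes fell, Acaca by 0.37 and Acacb by 0.39, as did Me1, the malic enzyme gene, by 0.34, and the fatty acid desaturase gene Fads1, by 0.72, from a mean of 2.32 to 1.38 FPKM. Scd1, the stearoyl-CoA desaturase gene, rose by 1.38, from a mean of 0.756 to 2.19 FPKM. Scd2 stood at 13.1 and 9.86 FPKM and did not pass the test (adjusted p = 0.195).

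Of 14 genes of sterol efflux and storage, 5 rose and 1 fell (7 and 4 with the replicate block). Of all genes tested, 19.3% rose and 21.7% fell without the block. Lipa, the lysosomal acid lipase that frees cholesterol from its esters, ranged from 47.3 to 59.5 FPKM in Ad-GFP and from 110 to 177 FPKM in Ad-h-NR4A2, without overlap (log2 fold change 1.43, adjusted p = 1.86e-07 from limma). Lcat, a cholesterol acyltransferase, rose from a mean of 1.94 to 3.25 FPKM (0.71), and Osbp, an oxysterol-binding protein, from 41.0 to 51.9 FPKM (0.33). The other two that rose, the transporter gene Abca1 and the oxysterol-producing hydroxylase gene Ch25h, stayed below 1 FPKM in every library. Nceh1, a neutral cholesterol ester hydrolase, fell from 31.4 to 20.1 FPKM (-0.65, adjusted p = 6.44e-05). Of 12 genes that use isoprenoids, 11 were tested and 9 did not pass (7 with the replicate block), whereas 40.9% of all genes tested passed without the block. Dhdds, of dolichol synthesis, rose from 43.6 to 60.1 FPKM (0.46), and Icmt, which methylates prenylated proteins, fell from 20.5 to 15.3 FPKM (-0.42). The part of cell number or of depth in these values was not tested.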
